A study of Homo sapiens with 6 samples.

Results

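The 40 genes described here encode the COPII and COPI vesicle coats and the receptors that load cargo into vesicles between the endoplasmic reticulum (ER) and the Golgi. They were chosen by gene symbol from the 17318 genes listed for each library, and all 40 were found. The study sequenced total RNA of SNU216, a gastric cancer line, 48 h after transfection with control siRNA (siControl, 3 libraries) or with siRNA to OXTR, the oxytocin receptor gene (siOXTR, 3 libraries). No other genotype or agent is named, both groups grew in the same medium, and the series title pairs the receptor with the transcriptional co-activator YAP. Nothing in the labels says that the libraries of a group are separate cultures, so a p-value here reflects the spread among 3 libraries that may be technical repeats. Every result is from 1 cell line, and which siRNA sequence was used is not given in the sources used here.

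COPII is a cytosolic coat that buds vesicles from the ER. The small GTPase SAR1, activated by the ER membrane protein PREB (SEC12), recruits the inner coat of SEC23 and SEC24, which binds cargo, and the outer cage of SEC13 and SEC31 follows, with SEC16 as an organiser of ER exit sites. COPI is the coat of the return route and of traffic within the Golgi, and it is recruited as a whole complex by the GTPase ARF1. Receptors that span the membrane connect lumenal cargo to both coats, among them the TMED family, the lectins LMAN1 and LMAN2, SURF4, the ERGIC proteins, and the KDEL receptors, which return escaped ER residents.

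OXTR, the targeted gene, was at 39.37, 38.87 and 39.02 FPKM in siControl and at 4.76, 4.65 and 5.34 FPKM in siOXTR, so every library followed its label (limma log2 fold change -2.76, SE 0.0606, adjusted p = 6.39e-11). The deposited unit is FPKM, a fragment count divided by transcript length and by the library's total. Across the 11550 tested genes, which are not independent replicates, libraries of a group correlated at a Pearson r of at least 0.9954 and libraries of different groups at 0.974 to 0.976. All 10 epithelial markers passed the filter on low values (a mean of 1 FPKM or more), and they summed to between 7421 and 8533 FPKM per siControl library and between 8442 and 8592 per siOXTR library. Of these, EPCAM, CDH1, CLDN4, CLDN7 and MUC1 fell, with CDH1 (E-cadherin) going from 76.1 ± 3.28 to 20 ± 0.243 FPKM, while KRT19 and ELF3 rose as deposited and did not pass after scaling by the trimmed mean of M-values (TMM), which removes overall shifts between libraries. The 6 fibroblast markers analysed summed to between 1.62 and 2.04 FPKM in siControl and between 0.610 and 0.830 in siOXTR, and the 7 blood and endothelial markers to between 1.27 and 2.15 FPKM over all libraries, and none of these 13 genes reached the filter. The T cell marker CD3E was at 0 in 5 of 6 libraries. In bulk RNA, fewer cells of a type and less RNA per cell cannot be told apart.

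The cytosolic coat genes were mostly higher in siOXTR and the membrane cargo receptor genes mostly lower. Of the 20 coat genes, 16 rose, 1 fell and 3 did not pass the threshold (limma on log2(FPKM + 1), Benjamini-Hochberg adjusted p under 0.05 over all tested genes), beside 42.2% of all tested genes that rose. Of the 17 receptor genes, 15 fell and 2 did not pass, beside 17.6% of all tested genes that fell. No receptor gene rose in limma, and none was higher at an unadjusted p under 0.05 or had a log2 fold change above 0. The median log2 fold change was 0.29 for the coat genes, -0.46 for the receptor genes and 0.13 across every tested gene. All 40 members passed the filter on low values.

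**Figure D1:**
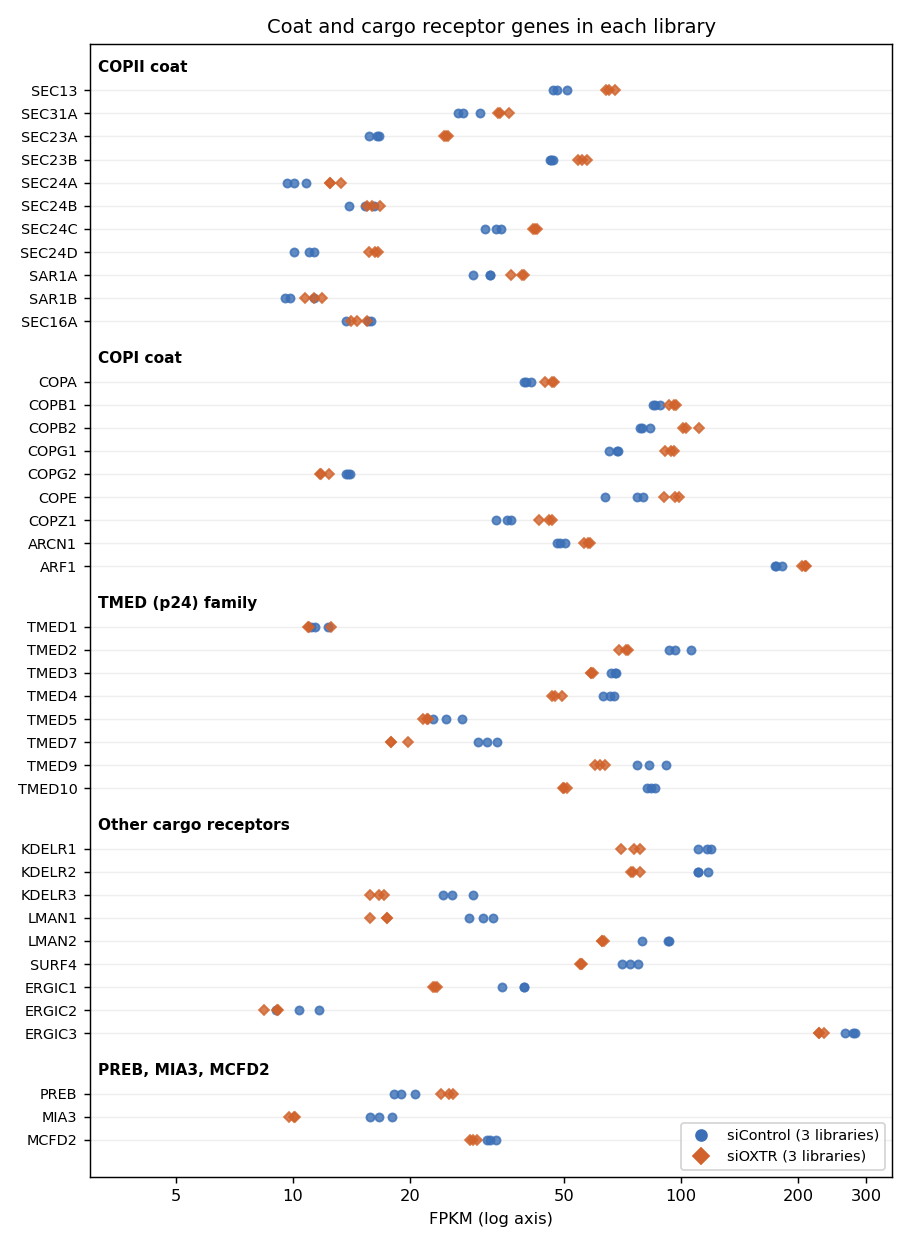
FPKM of the 40 members (log axis), with each of the 3 siControl libraries as a circle and each of the 3 siOXTR libraries as a diamond. In 16 coat genes every siOXTR library lies above every siControl library, and in 15 receptor genes every siOXTR library lies below.

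The 3 siOXTR libraries lay above all 3 siControl libraries in 16 of 20 coat genes, against 45.2% of all tested genes. They lay below in 15 of 17 receptor genes, against 19.2% of all tested genes. Scaling moved the level of all genes. TMM scaling shifted the median change over every tested gene by -0.112, to 0.016, after which 19.7% of them were called higher and 24.2% lower. After this scaling 12 coat genes were higher and 1 was lower (median 0.17), and 16 receptor genes were lower and none was higher (median -0.58). The classes' medians were of opposite sign under either scaling, although 4 coat genes lost their call.

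**Figure D2:**
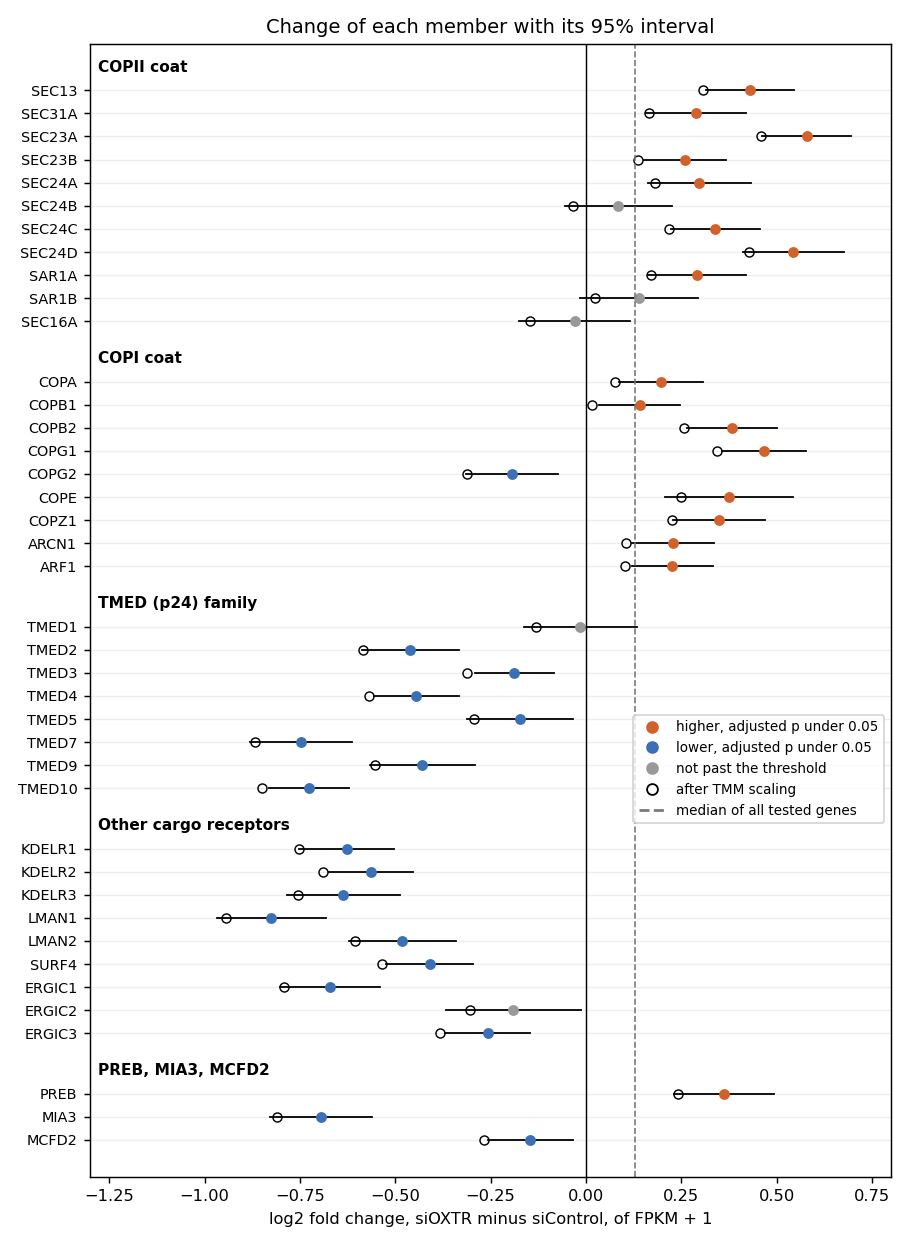
Log2 fold change of each member (siOXTR minus siControl, of FPKM + 1) as a filled circle with its unadjusted 95% interval, and after TMM scaling as an open circle. The coats lie mostly to the right of 0 and the receptors to the left, COPG2 is the coat gene that fell, and the dashed line marks the median of all tested genes, 0.13.

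A comparison of both classes within a library does not depend on how libraries are scaled, apart from the 1 added to FPKM before taking log2. The 20 coat genes summed to 879, 888 and 893 FPKM in siControl and to 1081, 1097 and 1086 FPKM in siOXTR. The 17 receptor genes summed to 1207, 1247 and 1251 FPKM in siControl and to 895, 914 and 903 FPKM in siOXTR. Receptor genes therefore made up 58.2% ± 0.292 of the joint sum in siControl and 45.4% ± 0.0968 in siOXTR (SD, n = 3 each), and in every library the larger sum was that of the receptors in siControl and that of the coats in siOXTR. The most abundant gene of each class did not carry this, because without ERGIC3 and ARF1 the share was 57.5% ± 0.308 and 43.4% ± 0.154. The median log2(FPKM + 1) of the receptor genes exceeded that of the coat genes by 0.97, 0.96 and 0.96 in siControl and by 0.22, 0.22 and 0.20 in siOXTR. Because the members were chosen with earlier results of these data known, the contrast is given without a test.

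**Figure D3:**
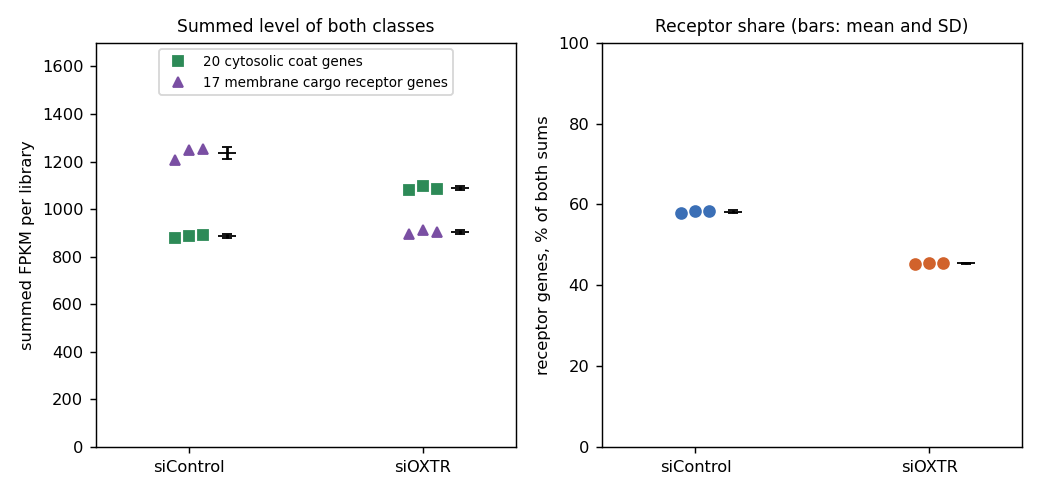
Left, FPKM summed over the 20 coat genes (squares) and the 17 receptor genes (triangles) in each library. Right, the receptor genes as a percentage of both sums, with the mean and SD of 3 libraries beside the points, which falls from 58.2% to 45.4%.

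Among the 11 genes of the COPII coat, 8 rose and none fell in limma, beside 42.2% and 17.6% of all tested genes. None was lower at an unadjusted p under 0.05, and the median log2 fold change was 0.29. After TMM scaling the calls were again 8 higher and none lower (median 0.17), beside 19.7% and 24.2% of all tested genes. On that scale 1 gene, SEC16A, was lower at an unadjusted p under 0.05 (limma log2 fold change -0.15, adjusted p = 0.090). SEC13, a cage subunit that is also part of the nuclear pore, was the most abundant, at 47.77, 50.66 and 46.81 FPKM in siControl and 65.06, 67.57 and 64.01 FPKM in siOXTR, a rise of 1.35-fold (limma log2 fold change 0.43, SE 0.0526, adjusted p = 2.96e-05). Its partner in the cage, SEC31A, rose from 28.1 ± 1.95 to 34.5 ± 1.19 FPKM. SEC16A, the exit site scaffold, was at 15.86, 15.58 and 13.72 FPKM in siControl and 15.47, 14.57 and 14.09 FPKM in siOXTR, with overlapping groups (limma log2 fold change -0.03, adjusted p = 0.717).

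The inner coat gene SEC23A, which activates the GTPase of SAR1, had the largest rise of the members as deposited. It was at 16.47, 15.66 and 16.61 FPKM in siControl and at 25.07, 24.75 and 24.42 FPKM in siOXTR, with no overlap (limma log2 fold change 0.58, SE 0.0532, adjusted p = 2.39e-06). Its paralog SEC23B was more abundant and rose less, from 46.61, 46.28 and 45.90 FPKM to 55.49, 57.09 and 54.25 FPKM (limma log2 fold change 0.26, SE 0.049, adjusted p = 0.000790). The share of SEC23A in the FPKM of both paralogs was 26% ± 0.653 in siControl and 30.8% ± 0.486 in siOXTR.

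Of the 4 SEC24 genes, whose products bind cargo signals, 3 rose, beside 42.2% of all tested genes. SEC24D went from 11.29, 10.04 and 10.98 FPKM to 15.72, 16.22 and 16.50 FPKM (limma log2 fold change 0.54, SE 0.0609, adjusted p = 1.38e-05). SEC24C, the most abundant, went from 34.42, 33.30 and 31.28 FPKM to 42.09, 42.40 and 41.44 FPKM, and SEC24A from 10.05, 9.67 and 10.78 FPKM to 12.42, 13.30 and 12.42 FPKM, both called higher. SEC24B was at 13.97, 15.32 and 16.13 FPKM in siControl and 16, 16.78 and 15.53 FPKM in siOXTR, groups that overlapped, and did not pass (limma log2 fold change 0.09, and -0.03 after TMM scaling, adjusted p = 0.265 as deposited). SEC24D held 15.6% ± 0.789 of the family's FPKM in siControl and 18.6% ± 0.551 in siOXTR. SEC24B held 21.9% ± 1.7 and 18.5% ± 0.419. The shares of SEC24A (14.7% and 14.6%) and SEC24C (47.8% and 48.3%) overlapped between groups.

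SAR1A, one of the 2 genes of the GTPase that starts COPII assembly, was at 32.14, 29.02 and 32.06 FPKM in siControl and 36.45, 39.41 and 38.86 FPKM in siOXTR (limma log2 fold change 0.29, SE 0.0589, adjusted p = 0.00124). SAR1B, known for its role in chylomicron export, was at 9.55, 9.79 and 11.31 FPKM and at 11.34, 11.89 and 10.76 FPKM, overlapping values that did not pass (limma log2 fold change 0.14, adjusted p = 0.111). Without siControl replicate 3, its highest control value, SAR1B passed (limma log2 fold change 0.21, adjusted p = 0.0192). SAR1A held 75.3% ± 1.64 of the FPKM of both genes in siControl and 77.1% ± 1.06 in siOXTR, with overlapping groups. PREB, their membrane-bound exchange factor, rose from 18.24, 20.55 and 18.99 FPKM to 25.85, 25.16 and 24.06 FPKM (limma log2 fold change 0.36, SE 0.0598, adjusted p = 0.000313). PREB encodes a membrane protein, yet its siOXTR libraries lay above every siControl library, as for most coat genes.

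Of the 9 COPI genes, 8 rose and 1 fell, with a median of 0.23, beside 42.2% higher and 17.6% lower among all tested genes. After TMM scaling 4 were higher and 1 was lower (median 0.10), beside 19.7% and 24.2% of all tested genes. ARF1, the GTPase that recruits the complex, was the most abundant, at 174.24, 181.65 and 175.44 FPKM in siControl and 205.08, 207.79 and 209.32 FPKM in siOXTR (limma log2 fold change 0.23, SE 0.0492, adjusted p = 0.00196). It was not called after TMM scaling (limma log2 fold change 0.10, adjusted p = 0.116), nor were COPA, COPB1 and ARCN1, which encode the alpha, beta and delta subunits and had log2 fold changes of 0.07, 0.02 and 0.10 on that scale. COPB1 also lost its call after median centring (limma log2 fold change 0.10, adjusted p = 0.118) and without siControl replicate 2 (limma log2 fold change 0.13, adjusted p = 0.0562). The same held without siOXTR replicate 2 (0.13, adjusted p = 0.107, limma) and without siOXTR replicate 3 (0.14, adjusted p = 0.0814, limma). COPB2 (beta prime), COPE (epsilon) and COPZ1 (zeta) were higher under both scalings, from 80.2 ± 2.40 to 105 ± 5.21, from 73.4 ± 8.54 to 95.1 ± 4.46 and from 35.1 ± 1.57 to 45.0 ± 1.78 FPKM.

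The paralogs of the gamma subunit moved in opposite directions. COPG1 was at 65.31, 68.22 and 68.58 FPKM in siControl and 96.04, 93.97 and 90.54 FPKM in siOXTR, the largest rise of the COPI genes (limma log2 fold change 0.47, SE 0.0506, adjusted p = 1.04e-05). COPG2 was at 13.65, 13.88 and 14.00 FPKM and at 12.37, 11.76 and 11.79 FPKM, the single fall among the 20 coat genes (limma log2 fold change -0.19, SE 0.0555, adjusted p = 0.00976). Neither gene's groups overlapped. COPG1 held 83.0% ± 0.208 of the FPKM of both genes in siControl and 88.6% ± 0.206 in siOXTR, a difference of 5.70 percentage points. The main COPG2 transcript overlaps exons of other genes over 14.9% of its bases, MEST on the opposite strand among them, and whether strand was used in counting is not given in the sources used here.

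**Figure D4:**
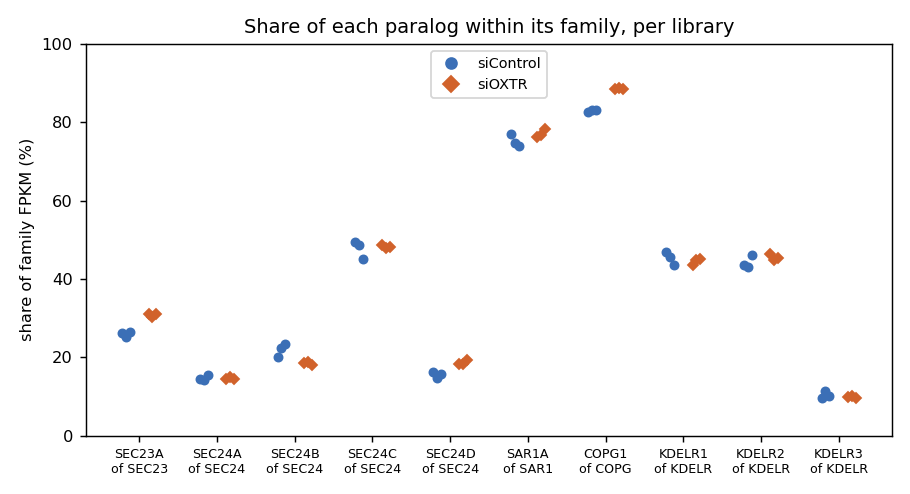
Share of a paralog in the summed FPKM of its family (percent), with siControl libraries as circles and siOXTR libraries as diamonds. The groups are apart for SEC23A, SEC24B, SEC24D and COPG1 and overlap for the other 6 shares, among them all 3 KDEL receptors.

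Of the 10 paralog shares compared, 4 did not overlap between groups (SEC23A, SEC24B, SEC24D and COPG1). Each of these had an exact permutation p of 0.1 (two-sided), the smallest that 3 libraries against 3 can give, and an adjusted p of 0.25 over the 10 shares, so none could pass the threshold in this test.

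The promoter sequences of 35 of the 40 members could be matched in RefSeq (GRCh38.p14, 250 bases before to 50 bases after the gene start). SEC24D, TMED4, TMED9, KDELR2 and ERGIC1 had no match. The matched windows were searched on both strands for 4 motifs, bound by factors of the ER stress response or of cyclic AMP signalling. The unfolded protein response element TGACGTGG was found in 8 member promoters, against 0.795% of all 27305 promoters and 0.873% of the 9511 promoters of tested genes. It was in 7 of 19 coat promoters (SEC23A, SEC24A, SEC16A, COPA, COPB1, COPB2 and ARF1), in 1 of 13 receptor promoters (KDELR3) and in 0 of the 3 others. The ER stress element (CCAAT, any 9 bases, CCACG), its second form (ATTGG, any 1 base, CCACG) and the cyclic AMP response element TGACGTCA were in none of the 35, against 0.0806%, 0.0549% and 1.98% of all promoters. Among the promoters of tested genes the shares were 0.137%, 0.116% and 3.33%. At shares this low, absence from 35 promoters says little. TGACGTCA begins with the same 6 letters as TGACGTGG, whose reverse complement CCACGTCA begins with the CCACG that ends both ER stress elements, so a stretch can match more than 1 of them in part.

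The matches that begin before the gene start are printed because this was the searched motif found in coat promoters, 5′ to 3′ on the gene's strand, with the match in capitals.
SEC24A (chr5:134648586-134648633, plus strand): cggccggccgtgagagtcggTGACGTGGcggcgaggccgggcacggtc
SEC23A (chr14:39103232-39103259, minus strand): cacgccccgtcccctcctctTGACGTGG
COPB1 (chr11:14499832-14499879, minus strand): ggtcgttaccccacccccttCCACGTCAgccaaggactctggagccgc
COPB2 (chr3:139389816-139389863, minus strand): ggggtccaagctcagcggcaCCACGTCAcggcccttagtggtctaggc
ARF1 (chr1:228082672-228082707, plus strand): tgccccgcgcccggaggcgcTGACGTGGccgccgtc
KDELR3 (chr22:38468030-38468077, plus strand): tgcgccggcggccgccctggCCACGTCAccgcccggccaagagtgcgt
Counted from the start as +1, the first base of the match was at -179 in SEC24A, -163 in COPB2, -48 in COPB1, -46 in KDELR3, -16 in ARF1 and -4 in SEC23A, where it ran past the start. In COPA and SEC16A it lay after the start, and COPB2 held another match there. These starts are RefSeq's, and those of the gene models given further on are GENCODE's, so they can differ: the SEC23A window lies inside its GENCODE gene bounds and the SEC16A match outside them.

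The genes with the motif went in both directions. Of the 8, SEC23A, SEC24A, COPA, COPB1, COPB2 and ARF1 rose, SEC16A did not pass and KDELR3 fell. SEC13, COPG1 and COPE rose, and these letters are not in their windows. Over the 83 tested genes with TGACGTGG, 51.8% were higher and 18.1% lower, beside 42.2% and 17.6% of all those tested, and their median log2 fold change was 0.16 beside 0.13.

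Of the 8 TMED genes, 7 fell, beside 17.6% of all tested genes. None rose in limma or was higher at an unadjusted p under 0.05, and the median log2 fold change was -0.44. The TMED proteins cycle between ER and Golgi and carry anchored and secreted cargo, and they also bind both coats by their short cytosolic tails. TMED2, the most abundant in siControl, was at 93.16, 96.13 and 106.17 FPKM in siControl and 68.96, 72.77 and 71.86 FPKM in siOXTR (limma log2 fold change -0.46, SE 0.0585, adjusted p = 4.03e-05). TMED10, which pairs with TMED2 in the protein complex, was at 85.55, 81.75 and 83.32 FPKM and at 49.66, 50.71 and 50 FPKM, a fall of 1.67-fold (limma log2 fold change -0.73, SE 0.0485, adjusted p = 1.2e-07). TMED7 fell 1.71-fold, from 31.66, 30.02 and 33.46 FPKM to 17.90, 19.74 and 17.85 FPKM (limma log2 fold change -0.75, SE 0.0617, adjusted p = 8.79e-07). In all 3 genes the siOXTR libraries were below every siControl library, as in 19.2% of all tested genes. TMED7 shares 23.9% of its 50-base stretches with the read-through transcript TMED7-TICAM2, so its value is uncertain.

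The other TMED genes had smaller changes, whose difference from those 3 was not tested. TMED4 and TMED9 (log2 fold changes -0.44 and -0.43) were close to TMED2 (-0.46). TMED4 went from 65.2 ± 2.17 to 47.6 ± 1.41 FPKM, TMED9 from 83.6 ± 7.19 to 61.7 ± 1.81 FPKM and TMED3 from 67.1 ± 0.973 to 58.8 ± 0.502 FPKM. TMED5 went from 25.0 ± 2.16 to 22.0 ± 0.353 FPKM and was close to the threshold (limma log2 fold change -0.17, adjusted p = 0.0342). Its call was lost when siControl replicate 1 (adjusted p = 0.0641, limma) or replicate 3 (0.116, log2 fold change -0.11) was left out. The same held without siOXTR replicate 1 (adjusted p = 0.0946, limma), 2 (0.0731) or 3 (0.0721). With all libraries kept, the TMED5 call was also lost when no filter on low values was used (adjusted p = 0.0668, limma). TMED1 was the exception, at 11.10, 12.31 and 11.39 FPKM in siControl and 12.49, 11.02 and 10.93 FPKM in siOXTR, with overlapping groups (limma log2 fold change -0.01, SE 0.068, adjusted p = 0.859). Exons of other genes, DNM2 on the opposite strand, cover 57.9% of the TMED1 transcript, so its reads cannot be assigned with certainty.

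All 3 KDEL receptor genes fell, beside 17.6% of all tested genes, with log2 fold changes between -0.64 and -0.56. KDELR1 was at 119.63, 116.76 and 110.72 FPKM in siControl and 70.05, 75.52 and 78.14 FPKM in siOXTR (limma log2 fold change -0.63, SE 0.057, adjusted p = 2.09e-06). KDELR2 was at 110.67, 110.75 and 117.11 FPKM and at 74.42, 75.25 and 78.31 FPKM (limma log2 fold change -0.56, SE 0.051, adjusted p = 2e-06). KDELR3, the least abundant, was at 24.31, 29 and 25.59 FPKM and at 15.81, 17.19 and 16.60 FPKM (limma log2 fold change -0.64, SE 0.0683, adjusted p = 9.7e-06). In all 3 every siOXTR library was below every siControl library, as in 19.2% of all tested genes. Their shares of the family's FPKM did overlap between groups, with KDELR1 at 45.4% ± 1.65 and 44.6% ± 0.788, KDELR2 at 44.3% ± 1.68 and 45.5% ± 0.841, and KDELR3 at 10.3% ± 0.899 and 9.9% ± 0.322. The differences were -0.79, 1.21 and -0.42 percentage points (exact permutation p of 0.5, 0.3 and 0.7, two-sided, and 0.714, 0.5 and 0.875 adjusted over the 10 paralog shares).

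LMAN1 (ERGIC-53), a lectin that exports coagulation factors and other glycoproteins, had the largest fall of the members as deposited and after TMM scaling. It was at 30.84, 28.42 and 32.73 FPKM in siControl and 17.41, 17.45 and 15.74 FPKM in siOXTR, 1.82-fold lower with no overlap (limma log2 fold change -0.82, SE 0.0656, adjusted p = 6.34e-07). Its soluble lumenal partner MCFD2 had a smaller change, and the difference between both was not tested. MCFD2 went from 33.27, 32.24 and 31.62 FPKM to 29.81, 28.63 and 29.08 FPKM (limma log2 fold change -0.15, SE 0.0513, adjusted p = 0.0276). The call of MCFD2 was lost without siControl replicate 1 (adjusted p = 0.0706, limma), siOXTR replicate 2 (0.11) or siOXTR replicate 3 (0.0815). LMAN2, a related lectin, fell from 88.3 ± 8.05 to 62.8 ± 0.528 FPKM and SURF4, a multi-pass export receptor for soluble cargo, from 73.8 ± 3.48 to 55.2 ± 0.478 FPKM.

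The 3 ERGIC genes, whose products cycle through the compartment between ER and Golgi, ranged from -0.67 to -0.19 in log2 fold change. ERGIC1 was at 39.23, 39.28 and 34.52 FPKM in siControl and 23.26, 23.54 and 22.97 FPKM in siOXTR (limma log2 fold change -0.67, SE 0.0603, adjusted p = 1.94e-06). ERGIC3, the most abundant of all 40 members, was at 263.62, 276.74 and 280.07 FPKM and at 226.25, 233.08 and 226.12 FPKM (limma log2 fold change -0.26, SE 0.0514, adjusted p = 0.00114). ERGIC2 was at 10.33, 9.03 and 11.65 FPKM and at 8.42, 9.15 and 9.11 FPKM, with overlapping groups, and did not pass (limma log2 fold change -0.19, adjusted p = 0.0595). ERGIC2 was called lower after TMM scaling (limma log2 fold change -0.30, adjusted p = 0.00952) and without siControl replicate 2 (limma log2 fold change -0.28, adjusted p = 0.00922), and had a log2 fold change of -0.11 without siControl replicate 3. MIA3 (TANGO1), the exit site receptor that packs collagen and other large cargo, fell 1.68-fold, from 17.97, 16.66 and 15.76 FPKM to 10.06, 9.78 and 10.10 FPKM (limma log2 fold change -0.69, SE 0.0618, adjusted p = 1.73e-06).

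The coding sequences were scanned for hydrophobic stretches as a check of the classes, which were themselves set by whether the protein is cytosolic or a membrane receptor. Predicted signal or membrane segments were found in all 17 receptor genes, in PREB, MIA3 and MCFD2, and in 2 of 20 coat genes, SEC24A and ARCN1, which encode cytosolic proteins, so the prediction errs there. Coding length differed as well, from 531 to 7071 bases in coat genes (median 2618) and from 603 to 1530 bases in receptor genes (median 681). Of the 3526 tested genes with a predicted segment 44.1% fell and 22.1% rose (median log2 fold change -0.10), and of the 7952 without one 6% fell and 51.1% rose (median 0.17). The receptor and coat genes thus had medians (-0.46 and 0.29) of the same sign as these broad classes and farther from 0. In PREB, which rose, the most hydrophobic stretch ended 8 residues before the end of the protein, and in MIA3, which fell, 703 residues before it. Among receptor genes that fell, the stretch ended 8, 12 and 17 residues before the end in TMED5, TMED3 and LMAN1. In TMED10 (219 residues) and ERGIC1 (290 residues) it ended 185 and 246 residues before the end, near the start of the protein. The scan does not tell a signal sequence there from a membrane span, so these positions need not be those of membrane spans. The highest mean over 9 residues near the start was 1.57 in PREB, under the cut of 2.2, and 2.9 in MIA3. LMAN2 (0.73), SURF4 (1.34) and ERGIC3 (1.67), which fell, were also under that cut. A relation between this position and the direction of change was not tested.

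Other genes of the early secretory pathway were taken from lists of related function. Of 32 listed cytosolic partners (tethers, ARF proteins and their regulators, TRAPP subunits) 30 were tested, of which 24 rose and none fell in limma or was lower at an unadjusted p under 0.05, with a median of 0.24, beside 42.2% higher and 17.6% lower among all tested genes. TRAPPC6A, TRAPPC1 and TRAPPC3, subunits of the vesicle tethering complex TRAPP, rose 1.48-fold, 1.42-fold and 1.32-fold, and SCFD1, which assists membrane fusion, rose 1.41-fold. After TMM scaling 12 of the 30 were higher and 2 lower, beside 19.7% and 24.2% of all tested genes. All 11 tail-anchored or lipid-anchored proteins of membrane fusion and contact rose (median 0.39, beside 42.2% of all tested genes), among them the SNARE genes BNIP1 (1.5-fold), STX5 (1.38-fold), BET1 (1.39-fold) and GOSR2 (1.36-fold), and 9 did after TMM scaling, beside 19.7%.

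**Figure D5:**
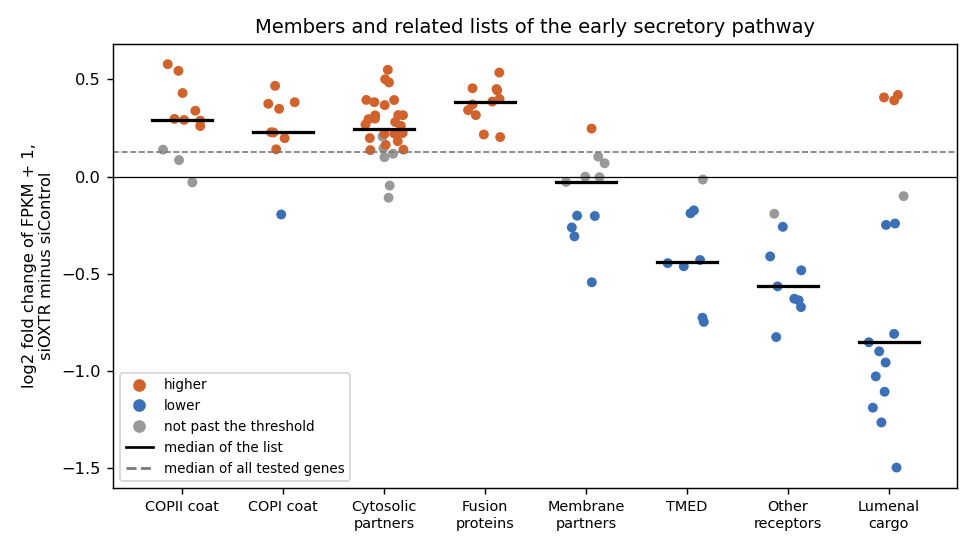
Log2 fold change (siOXTR minus siControl, of FPKM + 1) of every tested gene of the member classes and related lists, with a bar at each list's median and a dashed line at the median of all tested genes. Coats, cytosolic partners and fusion proteins have medians between 0.23 and 0.39, and the TMED genes, other receptors and lumenal cargo between -0.85 and -0.44.

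The 11 tested membrane partners of the coats were mixed, with 5 lower and 1 higher (median -0.03), beside 17.6% lower and 42.2% higher among all tested genes. LMAN2L, a close relative of LMAN2, fell 1.5-fold and BCAP31, an ER protein of export and quality control, fell 1.24-fold. YIF1A rose 1.19-fold as deposited and did not pass after TMM scaling (adjusted p = 0.101, limma). TMEM115, a Golgi protein gene, was called lower with overlapping groups, at 15.4 ± 2.08 and 12.7 ± 1.39 FPKM (adjusted p = 0.0326, limma). That call was lost without siControl replicate 1 (adjusted p = 0.0919, limma), siControl replicate 2 (0.143, log2 fold change -0.17) or siOXTR replicate 3 (0.143, log2 fold change -0.18).

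The lumenal proteins listed as cargo of the KDEL receptors numbered 15, of which 11 fell and 3 rose (17.6% and 42.2% of all tested genes), with a median of -0.85, though not all of them end in a KDEL-type signal. HSP90B1 fell 2.83-fold, HSPA5 2.41-fold, HYOU1 2.31-fold and PDIA4 2.16-fold, all of them chaperones or disulfide isomerases. SDF2L1, MANF and CRELD2 rose 1.32-fold, 1.33-fold and 1.34-fold. Among regulators known to act on secretory pathway genes, 5 of 7 were tested. XBP1 rose 1.4-fold and ATF4 1.82-fold, ATF6 fell 1.41-fold and CREB3L2 1.48-fold, and CREB3 (25.8 ± 1.71 and 27.9 ± 0.646 FPKM) did not pass (adjusted p = 0.126, limma).

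Several members overlap other genes in the annotation. Besides COPG2, TMED1 and TMED7, other genes' exons cover 42.7% of the SEC24C transcript, 23.1% of COPE, 11.7% of COPB1, 11.2% of TMED2 and 11.1% of TMED5, and COPE and COPB1 share 19.9% and 10.4% of their 50-base stretches with overlapping gene models on the same strand. SEC24A and SAR1B lie head to head on chromosome 5, where SEC24A spans 134648789 to 134727823 on the plus strand and SAR1B 134601144 to 134649271 on the minus strand (GRCh38), so that their 5′ ends overlap. SEC23A lies on chromosome 14 from 39031919 to 39109646, COPG1 on chromosome 3 from 129249606 to 129277773, TMED10 on chromosome 14 from 75131470 to 75176631 and LMAN1 on chromosome 18 from 59327823 to 59359962.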

How the data were processed

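RNA of 6 SNU216 libraries (3 siControl, 3 siOXTR) was analysed. The deposited values are FPKM per gene, per the file headers. The submitters' processing notes name the build GRCh38.p13. Which aligner and quantifier were used is not given in the sources used here, and depth is unknown. FPKM is relative to a library total and holds no absolute amount. FPKM summed to between 417829 and 459595 per library. The 11550 genes averaging 1 FPKM or more entered a limma fit (3.58.1, R 4.3.3) of log2(FPKM + 1) (group as the only term, mean trend, robust prior, two-sided), with Benjamini-Hochberg adjustment over all tested genes and a threshold of 0.05. This scale understates changes of low genes. Folds are ratios of mean FPKM, and ± is the SD of 3 libraries. TMM scaling (unweighted, trimming 30% of M and 5% of A) was an alternative. The fit was tested on simulated data. Gene models came from GENCODE 29 (GRCh38) and promoters from RefSeq. Membrane segments were predicted with Biopython 1.88 by Kyte-Doolittle means of at least 1.7 over 19 residues, or 2.2 over 9 residues within the first 35. Members and lists were chosen with earlier results of these data known. Named with values in every library were OXTR, members past the threshold with a log2 fold change of at least 0.58 in size (at most 6 per class), each class's most abundant member, PREB, MIA3, MCFD2 and the paralog families. Of each related list up to 4 genes with the largest changes were named, by fold or by mean and SD. SEC16A, TMED1, ERGIC2 and the other names were chosen after their values were seen.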

Additional observations from a re-analysis of the deposited data

How the results depend on the processing

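Under the 13 alternatives, 29 of 40 members kept their direction and side of the threshold. After TMM scaling 2281 genes were called higher in all, the coat median was 0.17 and the receptor median -0.58, and SEC24B changed sign (-0.033). Median centring gave medians of 0.25 and -0.50. A pseudocount of 0.1 made the gap between the receptor and coat medians -0.76. Leaving out 1 library at a time gave coat medians of 0.26 to 0.31, receptor medians of -0.50 to -0.44 and gaps of -0.78 to -0.70. In the same leave-one-out fits SEC16A, which was not called, ranged from -0.091 to 0.0071 (without siControl replicate 1), and TMED1, also not called, ranged from -0.072 to 0.025, with a positive sign without siControl replicate 2, siOXTR replicate 2 or siOXTR replicate 3. The cause of these changes was not tested. With the replicate number as a block 5100 genes were higher and 2105 lower, and ERGIC2 was the single member whose call changed (log2 fold change -0.19, adjusted p = 0.0315, limma). Same-numbered libraries deviated together with r of 0.107, 0.0042 and 0.16, and siControl replicate 2 correlated best with siOXTR replicate 1 (0.208), so the numbers were not taken to pair the libraries. Leaving out 1 library moved each difference in paralog share by less than the siControl SD, the larger of both groups' SDs. The 4 shares with no overlap between groups kept the sign of their difference. Among the others it ranged from -1.64 to 0.003 percentage points for KDELR1 (positive without siControl replicate 1), from 0.66 to 2.17 for KDELR2, from -0.8 to 0.074 for KDELR3 (positive without siControl replicate 2), from -0.38 to 0.34 for SEC24A, from -0.76 to 1.31 for SEC24C and from 1.2 to 2.79 for SAR1A. Depth is unknown, so the counting error of low genes cannot be given.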
